A study of Mus musculus with 6 samples.

Results

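The genes described here are 31 members of the nuclear receptor system that were measured in mouse liver by bulk RNA sequencing: 23 nuclear receptors and 8 coregulators that bind them. They were taken by gene symbol, as the superfamily members not treated with one of the receptor pathways of their own (LXR, FXR, thyroid hormone, glucocorticoid, PPAR-alpha and the clock receptors), plus the main coactivators. All 31 were among the 22599 genes of the deposited tables. Livers of NcoR1ΔHep mice (3 libraries, genotype labelled as knockdown NcoR1) were compared with livers of NcoR1fl/fl mice, called flox (3 libraries, genotype labelled as WT). Every library carries 0 h of ischemia-reperfusion in its title and liver ischemia-reperfusion as its treatment label, so all groups share that label, and whether the 0 h livers had surgery is not given in the sources used here. Mice of both genotypes were kept on chow with free access to water at a 12-hour light cycle. No age, strain, sex or Cre driver is given in the sources used here. The name NcoR1ΔHep points to deletion in hepatocytes, so other liver cells would keep the gene. Nothing in the labels says that each library came from its own mouse, and p-values therefore measure the spread between these libraries.

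Nuclear receptors are transcription factors that bind hormone response elements, and many of them change between repression and activation when a small lipophilic ligand binds. Without ligand, several of them recruit the corepressors NCoR1 and SMRT with histone deacetylase 3, while ligand favours the p160 coactivators, the acetyltransferases CBP and p300, and the Mediator subunit MED1. Retinoid X receptors are the shared partner in many of these complexes, and in liver the receptors together govern drug metabolism, bile acid, lipid and glucose handling.

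Total counts were 36975231 to 38470468 per library. Levels are given as the authors' FPKM, the read count divided by gene length and library total, and some as CPM, the count over the library total after TMM scaling, which corrects for differences in library makeup. The gene named by the genotype, Ncor1, was at 5.34, 6.63 and 4.93 FPKM in NcoR1ΔHep livers, against 6.78, 6.70 and 7.72 FPKM in flox livers (libraries 1, 2 and 3 of each genotype, an order kept below). Its groups did not overlap in FPKM but did with TMM scaling, where NcoR1ΔHep 2 had 75.1 CPM and flox 1 had 70.0. The log2 fold change of NcoR1ΔHep over flox was -0.31 (SE 0.21), and it was not called (adjusted p at or above 0.05), so the genotypes rest on the labels. Hepatocyte transcripts dominated in every library: albumin (Alb) was at 33762 to 37254 FPKM in NcoR1ΔHep livers and at 31817 to 42939.5 FPKM in flox livers. NcoR1ΔHep 1 stood apart from the other 5 libraries. Xist, the RNA that coats an inactive X, had 17138 counts there and 6 to 18 counts elsewhere. Eif2s3y, Kdm5d, Uty and Ddx3y, all Y-linked, together had 0.534 CPM there and at least 113 elsewhere. Flox 1 stood apart in another way, with the largest sums of endothelial and adipocyte markers. These sums are given below, after the members that were also highest in flox 1.

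Of the 31 genes, 30 had enough reads to be tested and none was called between the genotypes. In edgeR's quasi-likelihood test across 13205 genes, with Benjamini-Hochberg adjustment at 0.05, 0 of the 30 passed (adjusted p between 0.931 and 0.993), where 0.0% of all tested genes did. DESeq2 called 0 of them too, against 0.0246% (5 genes) of all genes. An unadjusted edgeR p under 0.05 was reached by 1 of the 30 (3.33%), the orphan receptor Nr2f2, where 3.35% of all tested genes reached it. By DESeq2 2 reached it, Nr2f2 and the xenobiotic receptor Nr1i3 (unadjusted p = 0.0499), against 4.13% of the same genes. Without flox 1, 0 members reached it by edgeR. In NcoR1ΔHep livers 17 were higher and 13 lower, where 46.5% of all tested genes were lower. The median log2 fold change of the 30 was 0.06, beside 0.03 over all tested genes. These shares lie near those of all genes.

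The groups did not overlap in FPKM for 6 of the 30, as was so for 7.56% of all tested genes. Nr2f2, Ppargc1b and Crebbp were above flox in every NcoR1ΔHep library (10% of the tested members, beside 2.61% of all tested genes). Rxra, Nr2f1 and Ncoa1 were below (10%, beside 4.95%). With TMM-scaled CPM, a scaling tried after the values were seen, only Ppargc1b and Crebbp remained apart. The share of all tested genes that was apart under that scaling is not given, so this count has no background beside it. The gap between the groups was 0.642 FPKM for Rxra, 0.179 FPKM for Nr2f2 and at most 0.0743 FPKM for the other 4.

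The intervals show how much the test could see. For 13 of the 30 genes the 95% interval of the fold change lay within 2-fold in either direction, beside 49.1% of all tested genes. Among the 13 were Nr1i2, Rxra, Rxrb, Nr2f6, Med1, Crebbp, Ep300 and all 3 p160 coactivators. For 29 it lay within 4-fold, and the exception was Nr1i3. The standard error ran from 0.18 (Med1) to 0.71 (Rarb), with a median of 0.31, the same as over all tested genes.

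**Figure D1:**
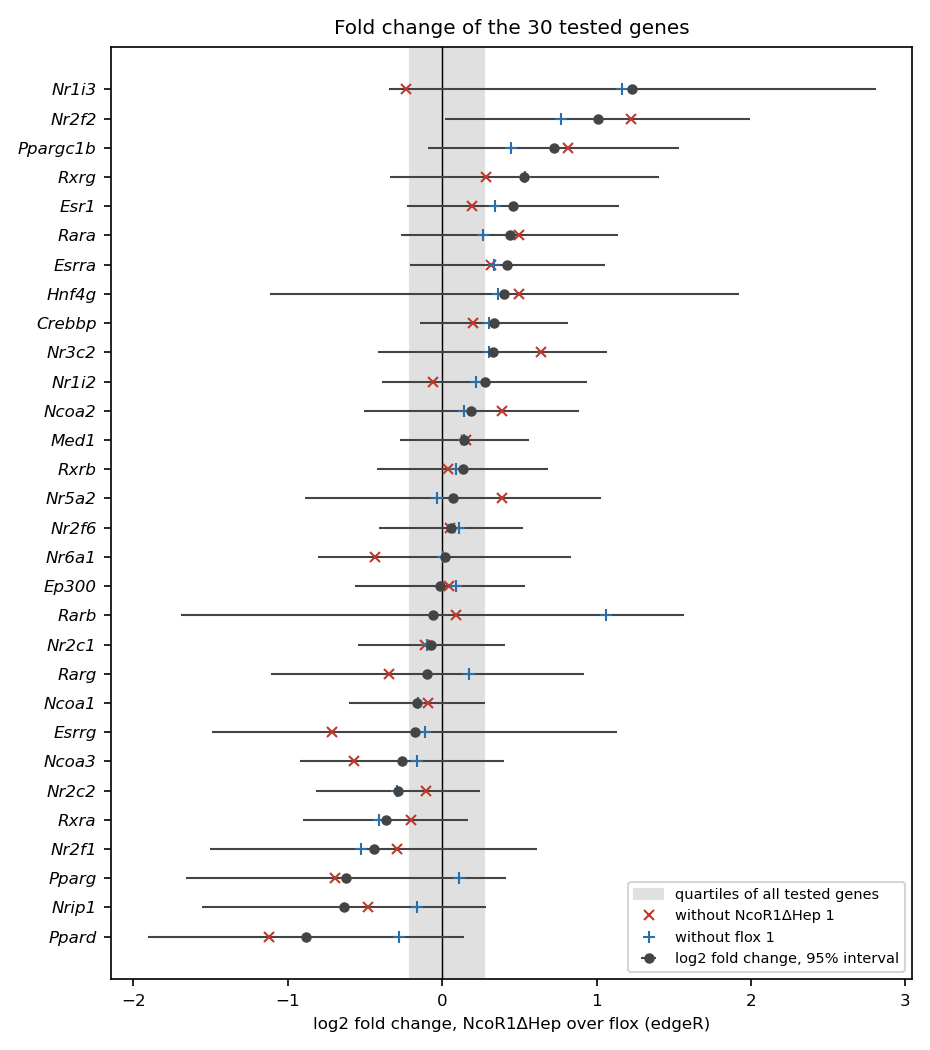
Fold change of each of the 30 tested genes as log2 of NcoR1ΔHep over flox (x axis), with points for the edgeR estimate and bars for its 95% interval. Crosses leave out NcoR1ΔHep 1, plus signs leave out flox 1, and the grey band spans the quartiles of all tested genes (-0.21 to 0.27). Nr1i3 moved to -0.23 without NcoR1ΔHep 1, and Rarb and Pparg moved to 1.06 and 0.11 without flox 1.

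Levels per length differed widely between the genes. Rxra led with a mean of 49.0 FPKM over the 6 libraries, followed by Nr1i3 (29.3 FPKM), Nr1i2 (24.6 FPKM), Nr2f6 (11.9 FPKM) and Nr5a2 (10.8 FPKM). The ranges of Nr2f6 (9.40 to 13.6 FPKM) and Nr5a2 (6.63 to 17.1 FPKM) over libraries overlapped, and those of Rxra and Nr1i3 did too because of NcoR1ΔHep 1. Another 18 genes lay between 1 and 10 FPKM, and 7 between 0.1 and 1 FPKM. Vdr was the lowest at 0.0122 FPKM. The order was steady at the ends: Rxra held rank 1 to 3, Nr1i2 rank 2 and Vdr rank 31 in each library. It was loose in the middle, where Rarb ran from rank 10 to 27 and Pparg from 7 to 19. The gene lengths behind the authors' FPKM differed from the longest transcript in the GENCODE vM21 annotation by more than 1.5-fold for 9 of the 31 genes. With that transcript's length in place of the authors', Nr2f6 took rank 2 and Nr1i3 rank 4, and the greatest shift was 5 ranks, for Ppargc1b.

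**Figure D2:**
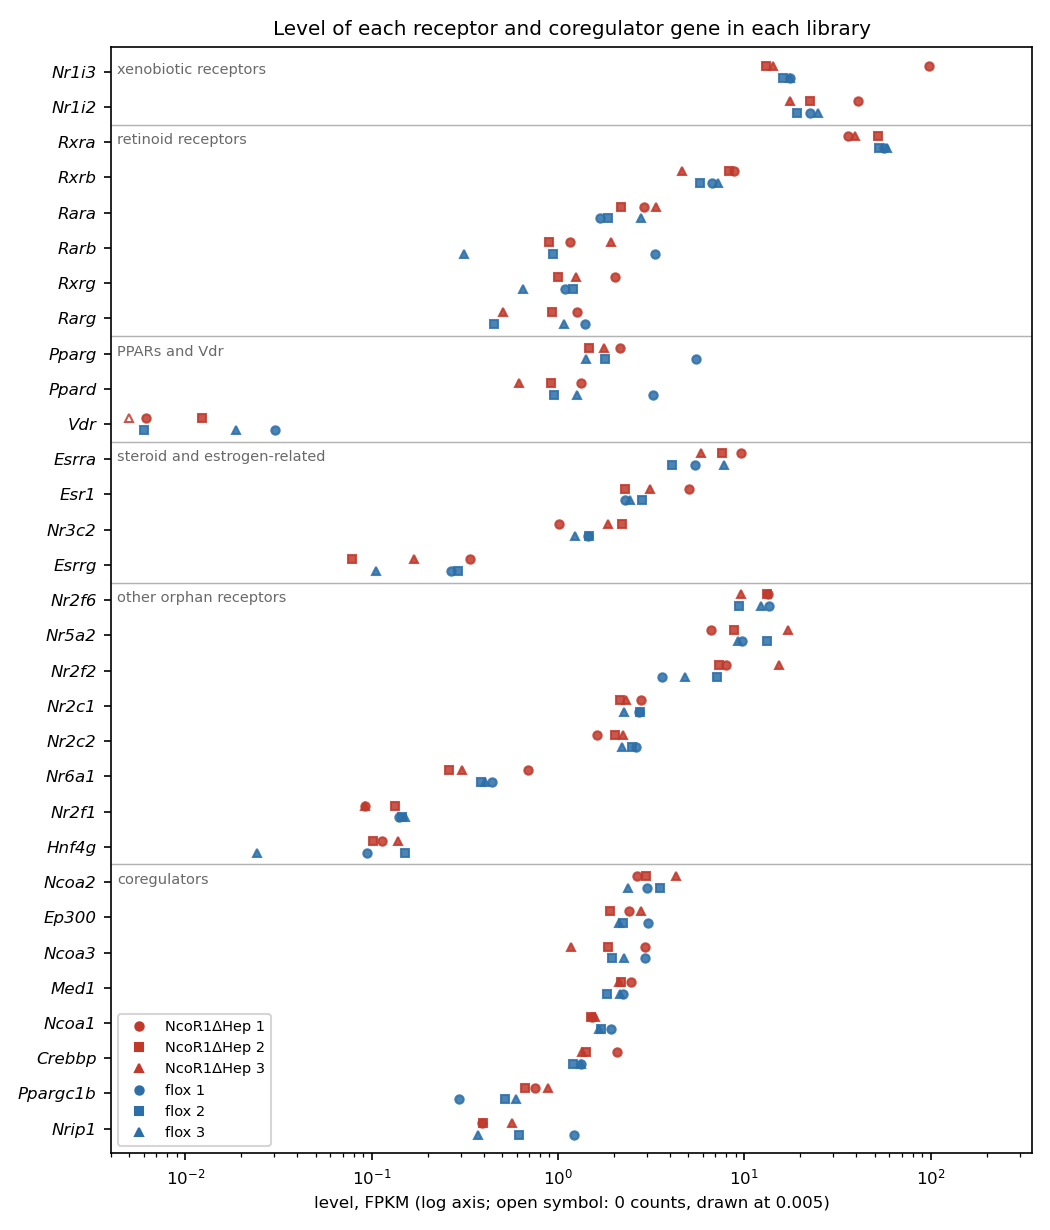
Level of the 31 genes in each library in FPKM on a log axis, grouped by role, with NcoR1ΔHep libraries in red above flox libraries in blue and the symbol giving the library number. Rxra is highest in 5 of 6 libraries, Nr1i3 reaches 97.4 FPKM in NcoR1ΔHep 1, and Vdr stays at or below 0.0302 FPKM.

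Nr1i3 encodes CAR, the constitutive androstane receptor, which drives genes of drug and bilirubin clearance. It was at 97.4, 13.0 and 14.2 FPKM in NcoR1ΔHep livers, against 17.5, 16.2 and 17.6 FPKM in flox livers. NcoR1ΔHep 1 was 5.53-fold above the next library, whereas NcoR1ΔHep 2 and NcoR1ΔHep 3 were below all 3 flox libraries. The log2 fold change was 1.23 (SE 0.69), 95% interval -0.35 to 2.81, and -0.23 without NcoR1ΔHep 1. The gene was the sole tested member that exceeded 2 times every other library in NcoR1ΔHep 1 (3.33% of the 30, beside 4.20% of all tested genes). Exons of Nr1i3 and of Tomm40l on the opposite strand overlap, and the strand setting of the counting is not given in the sources used here. Tomm40l was at 3.32, 4.43 and 2.94 FPKM in NcoR1ΔHep livers, against 5.54, 3.28 and 4.91 FPKM in flox livers, with no matching high value in NcoR1ΔHep 1. The 250 bases before the annotated Nr1i3 start, the promoter of the gene with the largest fold change here, are given from RefSeq (GRCm38.p6, chr1:171213720-171213969, plus strand), in lower case because they hold no copy of the receptor-binding hexamer AGGTCA on either strand.
Nr1i3: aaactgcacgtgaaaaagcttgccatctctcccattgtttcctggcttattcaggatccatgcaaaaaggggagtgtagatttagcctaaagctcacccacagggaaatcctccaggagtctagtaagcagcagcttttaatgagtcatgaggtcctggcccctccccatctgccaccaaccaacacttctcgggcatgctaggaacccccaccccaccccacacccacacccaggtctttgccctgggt

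Nr1i2 encodes PXR, the pregnane X receptor, the other xenobiotic sensor of hepatocytes. It was at 40.9, 22.5 and 17.7 FPKM in NcoR1ΔHep livers, against 22.5, 19.2 and 24.9 FPKM in flox livers. NcoR1ΔHep 1 was again the highest, and the other 5 libraries lay between 17.7 and 24.9 FPKM with the genotypes overlapping. The log2 fold change was 0.28 (SE 0.29), or -0.06 without NcoR1ΔHep 1. CAR made up 70.4% of the CAR and PXR total per length in NcoR1ΔHep 1 and 36.6% to 45.7% in the other 5 libraries.

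Of 26 genes that PXR and CAR activate in mouse liver, all tested, 16 were higher and 10 lower in NcoR1ΔHep livers. Their median log2 fold change was 0.17, and 0 were called by either tool. An unadjusted p under 0.05 was reached by 1 higher gene (1.43% of all tested genes) and 2 lower genes (1.92% of all tested genes). The higher gene was Sult2a1, a hydroxysteroid sulfotransferase, at 634, 0.866 and 0 FPKM in NcoR1ΔHep livers, against 0.490, 0.382 and 0.344 FPKM in flox livers, with 1 library far above the rest; near-identical copies may share its reads. Gsta1, a glutathione transferase that shares reads with near-identical copies, was at 0.186, 0.156 and 0.0311 FPKM in NcoR1ΔHep livers, against 1.44, 0.392 and 0.722 FPKM in flox livers. Its groups did not overlap, and the log2 fold change was -2.70 (SE 0.71). Abcc2, the canalicular export pump MRP2, was also below flox in every NcoR1ΔHep library, with a log2 fold change of -0.82 (SE 0.23).

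Several high values of this list lay in NcoR1ΔHep 1, while other genes of the list were lowest there. There 6 of the 26 exceeded 2 times every other library (23.1%, beside 4.20% of all tested genes): Cyp2b10, Cyp2c37, Sult2a1, Slco1a4, Gadd45b and Akr1b7. Cyp2c37, a cytochrome P450 of arachidonic acid and drug oxidation, was at 560.5, 63.9 and 114 FPKM in NcoR1ΔHep livers, against 94.4, 112 and 52.1 FPKM in flox livers. Cyp2b10, the textbook CAR target, was at 2.19, 0.343 and 0.200 FPKM in NcoR1ΔHep livers, against 0.799, 1.08 and 0.475 FPKM in flox livers, a low level in every library. Cyp3a11, the main PXR target, was at 1738, 2976 and 1828 FPKM in NcoR1ΔHep livers, against 1891, 2985 and 3209 FPKM in flox livers, lowest in NcoR1ΔHep 1. Ugt1a1 was at 8.84 FPKM in NcoR1ΔHep 1 and at 34.1 to 68.5 FPKM elsewhere. It was the 1 gene of the list more than 2-fold below every other library there, beside 274 of all 13205 tested genes. Cyp3a13, Cyp2c29, Abcc2, Aldh1a1 and Ephx1 were also lowest in NcoR1ΔHep 1. Of 12 tested genes known to be higher in female mouse liver, 11 exceeded 2 times every other library in NcoR1ΔHep 1, and the list summed to 2253 FPKM there and to 35.3 to 54.5 FPKM elsewhere. The leading members were A1bg with a log2 fold change of 7.30 (SE 2.40) and Acot3 with 4.53 (SE 1.49), and without NcoR1ΔHep 1 they were 0.11 and 2.33. Of 14 genes known to be higher in male liver, 12 were more than 2-fold below every other library there. The list summed to 449.8 FPKM in that library and to at least 5969 FPKM elsewhere, and its members with the smallest p were Elovl3 at -1.35 (SE 0.79) and Mup20 at -0.57 (SE 0.96), or -0.82 and 0.00 without it. What these sex-linked and sex-biased values contribute to Nr1i3 was not tested. With 1 such library, they cannot be told apart there from its genotype or from anything else particular to it.

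Rxra, the main liver isoform of the retinoid X receptor, which pairs with PXR, CAR, PPAR, LXR, FXR and RAR, was at 36.1, 51.9 and 39.4 FPKM in NcoR1ΔHep livers, against 56.2, 52.6 and 58.0 FPKM in flox livers. Its mean was 42.5 ± 8.36 FPKM in NcoR1ΔHep livers and 55.6 ± 2.77 FPKM in flox livers (SD, n = 3 each). Each NcoR1ΔHep library lay below each flox library, NcoR1ΔHep 2 by a narrow gap. Its log2 fold change was -0.37 (SE 0.23), 95% interval -0.90 to 0.17, and was negative under every alternative tried, from -0.52 without NcoR1ΔHep 2 to -0.20 without NcoR1ΔHep 1. With TMM scaling the groups overlapped, since NcoR1ΔHep 2 had 292 CPM and flox 1 had 288. Rxra has a pair of RefSeq starts, and the 250 bases before each are shown because they differ in the receptor hexamer. The first window (chr2:27676951-27677200, plus strand) holds no AGGTCA or TGACCT, and the second (chr2:27709042-27709291, plus strand) holds both, in capitals, beginning 48 and 87 bases before the start.
Rxra start 1: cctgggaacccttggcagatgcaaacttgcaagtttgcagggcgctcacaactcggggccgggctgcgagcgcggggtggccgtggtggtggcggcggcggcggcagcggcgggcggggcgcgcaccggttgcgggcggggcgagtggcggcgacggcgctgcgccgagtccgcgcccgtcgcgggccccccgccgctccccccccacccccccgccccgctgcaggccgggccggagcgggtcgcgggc
Rxra start 2: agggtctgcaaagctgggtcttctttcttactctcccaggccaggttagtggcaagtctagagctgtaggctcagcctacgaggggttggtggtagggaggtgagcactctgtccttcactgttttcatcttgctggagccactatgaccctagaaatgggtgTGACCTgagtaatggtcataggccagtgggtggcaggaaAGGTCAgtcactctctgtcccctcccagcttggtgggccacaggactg

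Rxrb, the widely expressed isoform, was at 8.82, 8.25 and 4.62 FPKM in NcoR1ΔHep livers, against 6.74, 5.79 and 7.22 FPKM in flox livers, and the genotypes overlapped. Rxrg, the isoform best known from muscle and brain, was low at 2.02, 0.997 and 1.24 FPKM in NcoR1ΔHep livers, against 1.10, 1.21 and 0.649 FPKM in flox livers, with a log2 fold change of 0.53 (SE 0.38). As a share of the RXR total per length, Rxra made up 76.9%, 84.9% and 87.1% in NcoR1ΔHep livers, against 87.8%, 88.2% and 88.1% in flox livers. This ratio within a library does not depend on the scaling, and its groups did not overlap. NcoR1ΔHep 3 was closest to flox and NcoR1ΔHep 1 furthest from it. Of 21 shares computed in 8 families, this one and that of Nr2f1 were the 2 that did not overlap. Nr2f1 had only 91 counts in all. Shares in other gene families were not computed, so these 2 have no background beside them.

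The retinoic acid receptors, which bind all-trans retinoic acid as partners of RXR, were low, and their genotypes overlapped. Rara, the most abundant of them, was at 2.91, 2.18 and 3.35 FPKM in NcoR1ΔHep livers, against 1.69, 1.86 and 2.79 FPKM in flox livers (log2 fold change 0.44, SE 0.31). Rarb, itself a retinoic acid target, was at 1.17, 0.894 and 1.94 FPKM in NcoR1ΔHep livers, against 3.30, 0.936 and 0.315 FPKM in flox livers. The NcoR1ΔHep livers lay between the flox livers, which spanned a 10.5-fold range with the highest value in flox 1 and the lowest in flox 3. Over genotypes the log2 fold change was -0.06 (SE 0.71), 95% interval -1.69 to 1.57, and 1.06 without flox 1. Exons of Rarb and of Top2b on the opposite strand overlap, and Top2b was at 7.24, 5.78 and 14.1 FPKM in NcoR1ΔHep livers, against 8.06, 10.6 and 5.68 FPKM in flox livers, high in NcoR1ΔHep 3 and not in flox 1. Rarg was at 1.26, 0.931 and 0.505 FPKM in NcoR1ΔHep livers, against 1.40, 0.451 and 1.08 FPKM in flox livers, with no separation.

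Of 12 genes that retinoic acid induces, 9 were tested, and 3 were higher and 6 lower in NcoR1ΔHep livers. Their median log2 fold change was -0.15, and 0 were called by either tool. Cyp26b1, which degrades retinoic acid, was at 0.0599, 0.0387 and 0.150 FPKM in NcoR1ΔHep livers, against 3.53, 0.233 and 0.0108 FPKM in flox livers (log2 fold change -3.73, SE 1.52). The high value was that of flox 1, where Rarb was also highest, and without flox 1 the log2 fold change was -0.58. Cyp26a1, the hepatocyte enzyme of the same step, was at 10.1, 1.56 and 11.6 FPKM in NcoR1ΔHep livers, against 19.2, 1.47 and 5.68 FPKM in flox livers. Stra6l, a retinol transporter, had a log2 fold change of -0.49 (SE 0.24). In bulk liver, fewer cells of a type and less RNA per cell cannot be told apart, here and for every gene below that other liver cells express.

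Pparg and Ppard, receptors for fatty acids and their derivatives, were both highest in flox 1. Pparg, low in healthy hepatocytes and known for lipid storage, was at 2.14, 1.47 and 1.76 FPKM in NcoR1ΔHep livers, against 5.50, 1.80 and 1.41 FPKM in flox livers. Ppard, the widely expressed isoform, was at 1.33, 0.920 and 0.616 FPKM in NcoR1ΔHep livers, against 3.25, 0.955 and 1.27 FPKM in flox livers. In both genes flox 1 exceeded 2 times every other library, and the other 5 libraries overlapped between genotypes. They were the 2 members of 30 that did so (6.67%, beside 1.14% of all tested genes). The log2 fold changes were -0.62 (SE 0.45) for Pparg and -0.88 (SE 0.45) for Ppard, and they were 0.11 and -0.28 without flox 1.

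Lipid storage and uptake genes known as PPAR-gamma and PPAR-delta targets had 9 of 11 tested members lower in NcoR1ΔHep livers. The median log2 fold change was -0.40, or -0.21 without flox 1. None of the 11 was called by either tool. Cidea, a lipid droplet protein, was at 0, 0.161 and 6.24 FPKM in NcoR1ΔHep livers, against 179, 0.558 and 0.0465 FPKM in flox livers (log2 fold change -4.52, SE 2.54, and 2.89 without flox 1). Plin4, another droplet coat protein, was at 0.296, 0.0990 and 0.118 FPKM in NcoR1ΔHep livers, against 2.63, 0.159 and 0.227 FPKM in flox livers (log2 fold change -2.45, SE 0.999, and -0.24 without flox 1). Cidec, a further droplet gene, was at 0.395, 0.489 and 3.22 FPKM in NcoR1ΔHep livers, against 20.5, 0.415 and 0.570 FPKM in flox livers. All 3 were more than 2-fold higher in flox 1 than anywhere else. Fatty acid handling genes outside the droplet were less far apart: Cd36 was at 21.6, 4.85 and 17.5 FPKM in NcoR1ΔHep livers, against 38.6, 16.2 and 5.07 FPKM in flox livers. Fabp4 was at 10.8, 8.95 and 5.14 FPKM in NcoR1ΔHep livers, against 20.4, 8.01 and 10.4 FPKM in flox livers.

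Markers of other cells were also high in flox 1. The 12 endothelial markers summed to 108, 59.5 and 45.5 FPKM in NcoR1ΔHep livers, against 172, 66.2 and 95.9 FPKM in flox livers, with 12 of 12 lower in NcoR1ΔHep livers. Their median log2 fold change was -0.63, or -0.29 without flox 1. The log2 fold change of Kdr was -1.01 (SE 0.37) and that of Ptprb -0.91 (SE 0.32). Clec4g, the most abundant, was at 31.9, 16.8 and 12.0 FPKM in NcoR1ΔHep livers, against 44.8, 17.3 and 32.5 FPKM in flox livers. The adipocyte genes found in the table (5 of 6 listed) summed to 0.608, 0.0218 and 11.5 FPKM in NcoR1ΔHep livers, against 115, 0.359 and 1.49 FPKM in flox livers, almost all of it Cfd in the libraries with the largest sums (395 counts in NcoR1ΔHep 3 and 4007 in flox 1). Cfd is also made by myeloid cells. Retn was also highest in flox 1, at 0.368 FPKM there and at most 0.0210 FPKM elsewhere, and was not tested. The defining adipocyte gene Adipoq had 0, 1 and 0 counts in NcoR1ΔHep livers and 0, 1 and 14 in flox livers. Plin1 had 1 count in flox 3 and 0 elsewhere, and Ucp1 had 0 in every library. The part of these cells in the values of Pparg, Ppard and Rarb was not tested.

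Vdr, the vitamin D receptor, known in liver from stellate and Kupffer cells, was at the limit of detection. It had 1, 2 and 0 counts in NcoR1ΔHep livers, against 5, 1 and 3 counts in flox livers, and was not tested. A count of 0 allows up to 3 counts, or 0.0185 FPKM in that library. Genes known as regulated by vitamin D were as low: S100g had 1 to 5 counts a library, Cyp24a1 and Bglap had 0 counts in every library, and Cyp27b1 had 1 count in NcoR1ΔHep 1 and 0 elsewhere. The sole tested gene of that list of 6 was the manganese exporter Slc30a10, at 3.63, 4.16 and 6.15 FPKM in NcoR1ΔHep livers, against 11.6, 9.23 and 4.41 FPKM in flox livers (log2 fold change -0.79, SE 0.38).

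**Figure D3:**
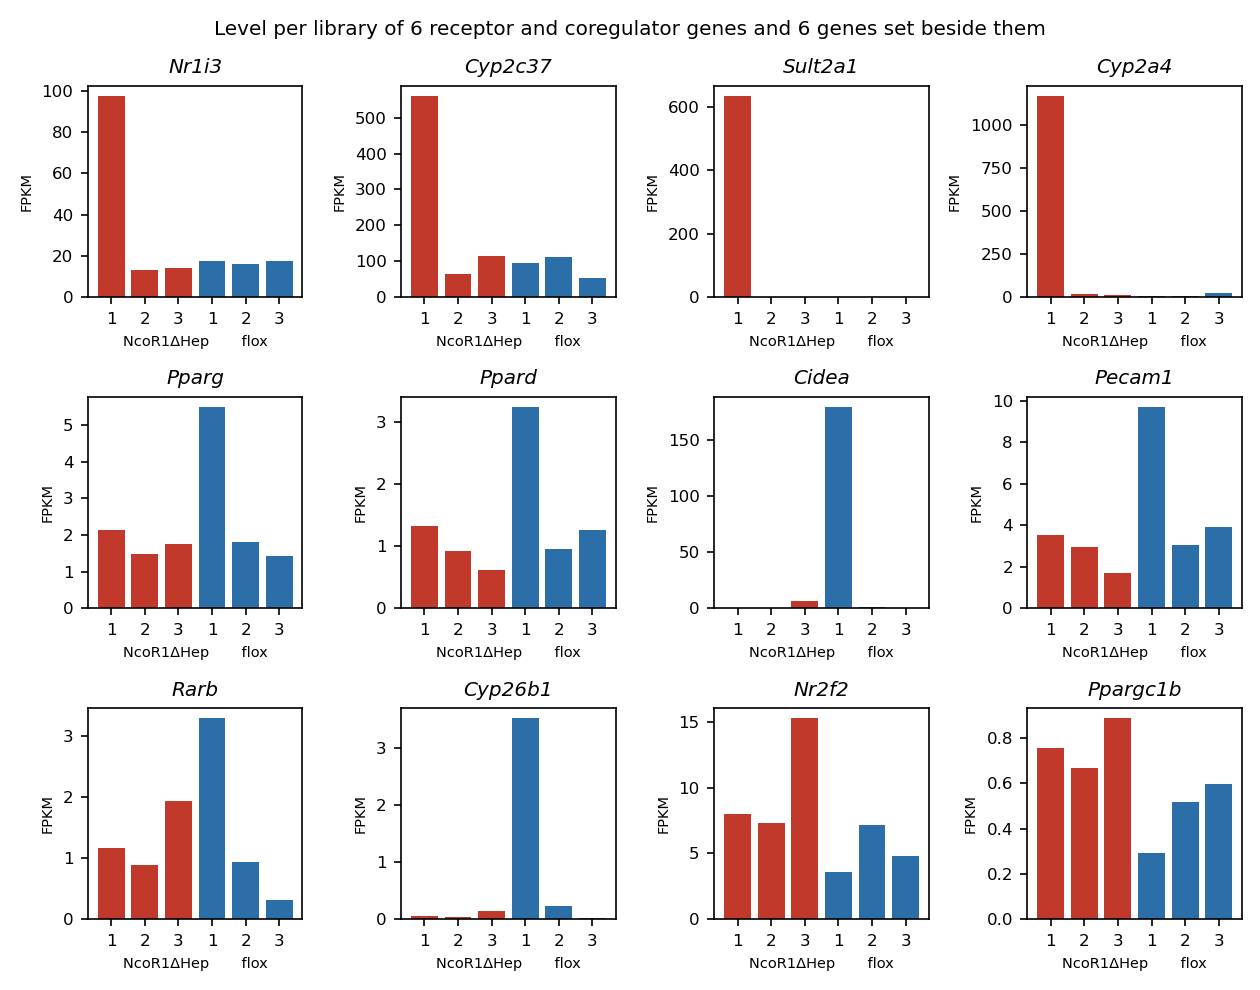
FPKM in each library (bars, axes from 0; NcoR1ΔHep 1 to 3 in red, flox 1 to 3 in blue) of 6 members and 6 genes discussed beside them. Nr1i3, Cyp2c37, Sult2a1 and Cyp2a4 were high in NcoR1ΔHep 1, Pparg, Ppard, Cidea, Pecam1, Rarb and Cyp26b1 in flox 1, and Nr2f2 and Ppargc1b were above flox in all 3 NcoR1ΔHep libraries.

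Esr1, the estrogen receptor alpha of hepatocytes, was at 5.05, 2.29 and 3.11 FPKM in NcoR1ΔHep livers, against 2.30, 2.84 and 2.43 FPKM in flox livers. NcoR1ΔHep 1 was the highest and the other 5 overlapped, with a log2 fold change of 0.46 (SE 0.30), or 0.19 without that library. Esrra, the estrogen-related receptor that works with PGC-1 on mitochondrial genes, was at 9.59, 7.64 and 5.84 FPKM in NcoR1ΔHep livers, against 5.42, 4.08 and 7.77 FPKM in flox livers. The genotypes overlapped, with flox 3 above NcoR1ΔHep 2 and NcoR1ΔHep 3, and the log2 fold change was 0.42 (SE 0.27). Esrrg, its relative, was at 0.338, 0.0789 and 0.170 FPKM in NcoR1ΔHep livers, against 0.268, 0.290 and 0.106 FPKM in flox livers. Nr3c2, the mineralocorticoid receptor, was at 1.01, 2.21 and 1.85 FPKM in NcoR1ΔHep livers, against 1.44, 1.47 and 1.24 FPKM in flox livers, lowest in NcoR1ΔHep 1 and highest in NcoR1ΔHep 2 and NcoR1ΔHep 3 (log2 fold change 0.33, SE 0.32, or 0.64 without NcoR1ΔHep 1).

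Mitochondrial genes known as targets of ERR-alpha and PGC-1 had 8 of 13 tested members higher and 5 lower in NcoR1ΔHep livers. The median log2 fold change was 0.02, and 0 were called by either tool. Idh3a, a subunit of the tricarboxylic acid cycle enzyme isocitrate dehydrogenase, was at 22.5, 17.2 and 21.8 FPKM in NcoR1ΔHep livers, against 16.8, 12.6 and 15.3 FPKM in flox livers. It was above flox in every NcoR1ΔHep library, with a log2 fold change of 0.49 (SE 0.21). Atp5b, the beta subunit of ATP synthase, had a log2 fold change of -0.40 (SE 0.25), with overlapping groups.

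Nr2f2 encodes COUP-TFII, an orphan receptor of vein, stromal and some hepatocyte lineages. It was at 7.97, 7.30 and 15.3 FPKM in NcoR1ΔHep livers, against 3.60, 7.13 and 4.80 FPKM in flox livers. All NcoR1ΔHep libraries lay above all flox libraries, but by only 0.179 FPKM between NcoR1ΔHep 2 and flox 2, and NcoR1ΔHep 3 was far above the rest. Its log2 fold change was 1.01 (SE 0.43), 95% interval 0.02 to 1.99, with an adjusted p of 0.931 by edgeR. Over the alternatives it stayed positive, between 0.47 without NcoR1ΔHep 3 and 1.38 without flox 2. With TMM scaling the groups overlapped, since NcoR1ΔHep 1 and NcoR1ΔHep 2 had 46.3 and 44.8 CPM and flox 2 had 47.4 CPM.

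Stellate and endothelial cells also express Nr2f2. Of 12 stellate markers, all tested, 11 were higher in NcoR1ΔHep livers. Their median log2 fold change was 0.13, and they summed to 266, 205 and 159 FPKM in NcoR1ΔHep livers, against 165, 142 and 145 FPKM in flox livers. The sum was highest in NcoR1ΔHep 1 and NcoR1ΔHep 2, while Nr2f2 was highest in NcoR1ΔHep 3. In NcoR1ΔHep 1 the sum was led by Ecm1 and Dcn, while the collagen genes of the list were lowest there. Col1a1 was at 1.08 FPKM there and at 1.80 to 6.61 FPKM elsewhere. Col1a2 was at 2.31 against 3.85 to 8.50 FPKM, and Col3a1 at 6.55 against 13.3 to 29.8 FPKM. The markers' mean deviation, in log2(TMM-scaled CPM + 1), was 0.01 in NcoR1ΔHep 1 and 0.40 in NcoR1ΔHep 2. The log2 fold change of Hand2 was 1.10 (SE 0.49) and that of Ecm1 1.01 (SE 0.48). Both rested in part on NcoR1ΔHep 1, without which they were 0.59 and 0.34: Ecm1 was at 113 FPKM there and at 48.8 FPKM at most in the other libraries. Dcn, the most abundant, was at 107, 80.6 and 90.6 FPKM in NcoR1ΔHep livers, against 71.0, 80.8 and 60.2 FPKM in flox livers. Endothelial sums, given above, were lowest in NcoR1ΔHep 3 at 45.5 FPKM. The part of these cells in the Nr2f2 values was not tested.

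The other COUP-TF genes had other orders of libraries. Nr2f6, the abundant relative called EAR2, was at 13.4, 13.3 and 9.57 FPKM in NcoR1ΔHep livers, against 13.6, 9.40 and 12.3 FPKM in flox livers (log2 fold change 0.06, SE 0.20, 95% interval -0.41 to 0.52). Nr2f1, COUP-TFI, was near the detection limit at 0.0916, 0.134 and 0.0920 FPKM in NcoR1ΔHep livers, against 0.140, 0.146 and 0.152 FPKM in flox livers, from 91 counts in all 6 libraries. Its groups did not overlap in FPKM but did with TMM scaling (log2 fold change -0.44, SE 0.46). Its exons overlap A830082K12Rik on the opposite strand, so its reads are uncertain. Exons of Nr2f6 overlap Ocel1 on the opposite strand by 1622 bases, and those of Nr2f2 overlap B130024G19Rik by 643. Esrra, Nr3c2 and Ncoa3 also have an opposite-strand overlap with a counted gene.

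Nr5a2 encodes LRH-1, a receptor of bile acid and cholesterol genes. It was at 6.63, 8.82 and 17.1 FPKM in NcoR1ΔHep livers, against 9.76, 13.2 and 9.20 FPKM in flox livers. NcoR1ΔHep livers held both the lowest and the highest value, so the log2 fold change of 0.07 (SE 0.42) turned to -0.54 without NcoR1ΔHep 3 and to 0.38 without NcoR1ΔHep 1. Of 9 genes known as LRH-1 targets, all tested, 5 were higher and 4 lower, and 0 were called by either tool. Their median log2 fold change was 0.02. Those with the smallest p went in opposite directions: the bile salt pump Abcb11 had a log2 fold change of -0.51 (SE 0.22), below flox in every NcoR1ΔHep library, and the bile acid enzyme Cyp7a1 of 1.32 (SE 0.57), with overlap.

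Nr2c1 and Nr2c2, the testicular receptors TR2 and TR4, were close to each other in level and steady. Nr2c1 was at 2.80, 2.16 and 2.31 FPKM in NcoR1ΔHep livers, against 2.72, 2.75 and 2.26 FPKM in flox livers. Nr2c2, whose exons overlap Mrps25 on the opposite strand, was at 1.62, 2.02 and 2.22 FPKM in NcoR1ΔHep livers, against 2.62, 2.49 and 2.21 FPKM in flox livers. The log2 fold change was -0.07 (SE 0.21) for Nr2c1 and -0.29 (SE 0.23) for Nr2c2. Nr6a1, the germ cell nuclear factor, was at 0.688, 0.260 and 0.305 FPKM in NcoR1ΔHep livers, against 0.443, 0.384 and 0.408 FPKM in flox livers, highest in NcoR1ΔHep 1, with a log2 fold change of 0.02 (SE 0.36). Hnf4g, the gut relative of Hnf4a, had 105 counts in all and was at 0.113, 0.102 and 0.138 FPKM in NcoR1ΔHep livers, against 0.0942, 0.151 and 0.0242 FPKM in flox livers.

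Among coregulators, 4 of 8 were higher and 4 lower, and the median log2 fold change was 0.06. Ppargc1b, which encodes PGC-1beta, a coactivator of ERR-alpha and of lipogenic factors, was at 0.754, 0.668 and 0.888 FPKM in NcoR1ΔHep livers, against 0.293, 0.517 and 0.597 FPKM in flox livers. Each NcoR1ΔHep library was above each flox library, with FPKM as with TMM scaling, and flox 1 was the lowest by far. Its log2 fold change was 0.72 (SE 0.35), 95% interval -0.09 to 1.54, and it was 0.45 without flox 1.

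Crebbp, the acetyltransferase CBP, was at 2.09, 1.42 and 1.35 FPKM in NcoR1ΔHep livers, against 1.33, 1.20 and 1.33 FPKM in flox livers. The groups did not overlap under either scaling, by a gap of 0.0184 FPKM between NcoR1ΔHep 3 and flox 1, and NcoR1ΔHep 1 was the highest. Its log2 fold change was 0.34 (SE 0.21), or 0.20 without NcoR1ΔHep 1. Ep300, its paralogue p300, was at 2.41, 1.90 and 2.78 FPKM in NcoR1ΔHep livers, against 3.03, 2.23 and 2.14 FPKM in flox livers, with a log2 fold change of -0.02 (SE 0.24). CBP took 46.4%, 42.7% and 32.7% of the CBP and p300 total per length in NcoR1ΔHep livers, against 30.6%, 35.0% and 38.4% in flox livers, with overlap.

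The p160 coactivators, which dock on ligand-bound receptors and bring in CBP and p300, showed 1 narrow separation. Ncoa1 (SRC-1) was at 1.53, 1.50 and 1.58 FPKM in NcoR1ΔHep livers, against 1.92, 1.69 and 1.65 FPKM in flox livers. The NcoR1ΔHep livers agreed to within 2.53% (coefficient of variation), the smallest spread of any tested member, and lay below flox, but not with TMM scaling. Its log2 fold change was -0.16 (SE 0.19). Ncoa2 (SRC-2) was at 2.67, 2.96 and 4.28 FPKM in NcoR1ΔHep livers, against 3.02, 3.54 and 2.36 FPKM in flox livers, highest in NcoR1ΔHep 3. Ncoa3 (SRC-3) was at 2.93, 1.85 and 1.18 FPKM in NcoR1ΔHep livers, against 2.95, 1.94 and 2.27 FPKM in flox livers, lowest in that library. Ncoa2 took 37.4% to 60.8% of the p160 total per length, Ncoa3 16.8% to 41.1% and Ncoa1 21.5% to 26.3%.

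Med1, the Mediator subunit that contacts receptors, was at 2.46, 2.18 and 2.14 FPKM in NcoR1ΔHep livers, against 2.23, 1.84 and 2.16 FPKM in flox livers. It had the tightest estimate of the 30 genes, with a log2 fold change of 0.14 (SE 0.18), 95% interval -0.27 to 0.56. Nrip1, which encodes the ligand-dependent corepressor RIP140, was at 0.391, 0.394 and 0.564 FPKM in NcoR1ΔHep livers, against 1.22, 0.615 and 0.374 FPKM in flox livers. Flox 1 was again the highest, at 1.99-fold the next library, and the log2 fold change of -0.63 (SE 0.40) was -0.16 without it.

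Differences between libraries of the same genotype were about as large for these genes as for all tested genes. The median coefficient of variation of FPKM was 25.6% in NcoR1ΔHep livers and 19.9% in flox livers over the 30 tested genes, and 29.4% and 21.7% over all tested genes. In NcoR1ΔHep livers it was largest for Nr1i3 (116%) and in flox livers for Rarb (104%). With TMM scaling, NcoR1ΔHep 1 held the highest value of 10 of the 30 genes (33.3%, beside 29.1% of all tested genes) and the lowest of 7 (23.3%, beside 28.3%). The 10 were Nr1i2, Nr1i3, Rxrb, Rxrg, Esr1, Esrra, Esrrg, Nr6a1, Ncoa3 and Crebbp. NcoR1ΔHep 3 held the highest of 7, which were Rara, Nr2f2, Nr5a2, Ncoa2, Med1, Ppargc1b and Ep300. Flox 1 held the highest of 5: Rarb, Rarg, Ppard, Pparg and Nrip1.

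**Figure D4:**
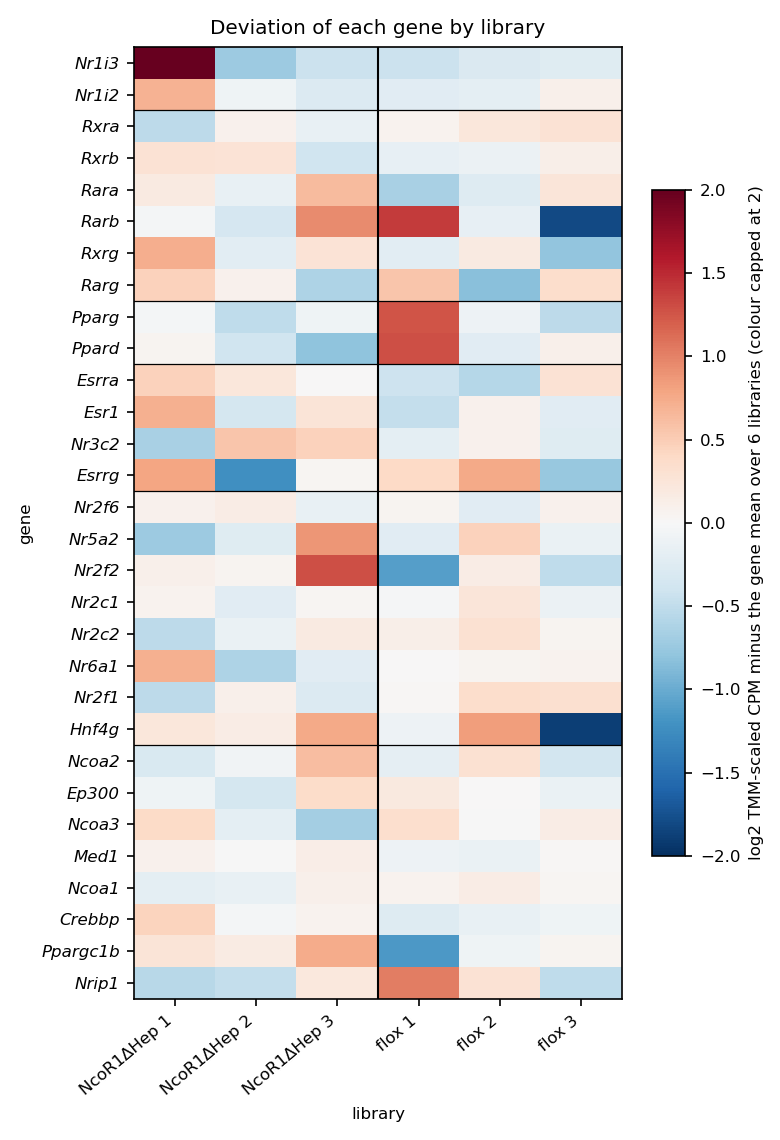
Deviation of each tested gene from its mean over the 6 libraries, in log2 TMM-scaled CPM (colour, capped at 2), with NcoR1ΔHep libraries left of the line and genes grouped by role. Among the strongest high colours are Nr1i3 in NcoR1ΔHep 1, Nr2f2 in NcoR1ΔHep 3, and Pparg, Ppard and Rarb in flox 1. Among the strongest low colours are Esrrg in NcoR1ΔHep 2, Nr2f2 and Ppargc1b in flox 1, and Rarb and Hnf4g in flox 3.

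Of 26 further nuclear receptors, 22 were in the table and 17 were tested, and 9 were higher and 8 lower. At the median the log2 fold change was 0.09, and 0 were called by either tool. Nr1d2, the clock repressor REV-ERB-beta, had a log2 fold change of 0.66 (SE 0.40). Of 26 further coregulators, all tested, 10 were higher and 16 lower, with a median log2 fold change of -0.14, and 0 had an unadjusted p under 0.05. Carm1, an arginine methyltransferase of the p160 complex, stood at 0.45 (SE 0.23) on the log2 scale, and the chromatin factor Asxl1 at -0.41 (SE 0.22).

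Markers of the remaining cell types gave no call either, and the medians and values below are log2 fold changes unless given in FPKM. Tested Kupffer cell and macrophage markers (11) had 9 lower and a median of -0.34, with Cd68 at -0.63 (SE 0.27) and Vsig4 at -0.38 (SE 0.22), and Cd5l, the most abundant, at 32.7, 77.3 and 21.0 FPKM in NcoR1ΔHep livers, against 64.5, 40.1 and 69.9 FPKM in flox livers. Cholangiocyte markers (6 of 9 tested) had 4 higher and a median of 0.35, with Epcam at 1.23 (SE 0.51) and Spp1, the most abundant, at 0.93 (SE 0.51). The cholangiocyte sum was 105 FPKM in NcoR1ΔHep 2 and 26.3 to 40.4 FPKM in the other 5 libraries. Without NcoR1ΔHep 2 the cholangiocyte median was -0.14 and Spp1 was at 0.04. Lymphocyte markers (11 tested) had 6 higher and 5 lower and a median of 0.03, or -0.63 without NcoR1ΔHep 1. Cd4 was at -1.14 (SE 0.47) and Cd79a at -0.99 (SE 0.47). Cd79b, the most abundant, was at 0.34, and at 1.48 FPKM at most. Neutrophil markers (3 of 10 tested) had a median of -0.21, or 1.29 without flox 3, with Ngp at -0.34 (SE 1.03) and S100a9 at -0.21 (SE 0.78), and S100a8, the most abundant, was highest in flox 3 at 11.2 FPKM. Hepatocyte markers (10 tested) had 6 higher and a median of 0.19, with Tat at 0.74 (SE 0.27) and Apob at -0.61 (SE 0.51), or -0.23 without NcoR1ΔHep 1.

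The hexamer AGGTCA, or TGACCT on the other strand, was searched in the 250 bases before each RefSeq start of the members found in the promoter table. It was present in 7 of 44 windows from 27 genes (15.9%), beside 14.0% of 32851 windows of all genes. The genes with a match were Rarg, Rxra, Rxrg, Pparg, Nr5a2 and Nr6a1. A match describes letters in this window and was not set against any expression value.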

How the data were processed

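RNA of mouse liver was sequenced as 6 libraries after column extraction and a SMARTer mRNA kit, per the labels' protocols. The authors deposited unnormalized whole-number read counts per gene symbol, and FPKM of the same genes and libraries. Count, FPKM and library total implied a whole gene length (within 0.01), equal across libraries, for 99.99% of 12656 genes checked, so FPKM holds the count scaled by length and total. The submitters' processing notes name GRCm38, mm10 and hg38 without a role. No aligner, counter or strand setting is given in the sources used here. Of 22599 symbols, 21963 had a RefSeq row (GRCm38.p6).

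From the counts, filterByExpr (minimum count 10, minimum total 15) kept 13205 genes, which were TMM-scaled and tested with edgeR 4.0.16 (quasi-likelihood, two-sided, R 4.3.3), with standard errors from the F statistic. The fit was checked on simulated data with planted changes between the groups. No simulated library stood apart as NcoR1ΔHep 1 and flox 1 do, so the check does not cover that feature. Alternatives were DESeq2 1.42.0, other scalings and filters, limma 3.58.1 (voom, and log2(FPKM + 1) or + 0.1), a replicate block and leaving out each library.

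The members and the 19 further gene lists were chosen with earlier results of these data known, so no list was tested. Named genes are all members, Ncor1, the 2 tested genes of each further list with the smallest p, the most abundant marker of each cell type and the sex-linked genes. Other genes, such as Sult2a1, Cyp2b10, Cyp2c37, Cyp3a11, Cyp2a4, Cyp26a1, Cidec, Cd36, Fabp4, Retn, Col1a1, Col1a2, Col3a1 and Pecam1, were picked after their values were seen. So were Ugt1a1, Cyp3a13, Cyp2c29, Aldh1a1 and Ephx1. A gene that the rule names is not reported here.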

Additional observations from a re-analysis of the deposited data

How the results depend on the processing

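No member was called under any of 17 alternatives, and none of the 6 fits that left out a library called any gene. Over all genes, DESeq2 called 5 and limma on log2(FPKM + 1) without a filter called 8. The median log2 fold change of the members ran from 0.02 to 0.18 when each library was left out. Members with an unadjusted p under 0.05 numbered 0 to 3 then. Of 30 members, 17 kept the sign of their fold change in every alternative that could be run. The others changed sign at small values or with 1 library, and the cause was not tested. With the replicate number as a block, 0 members and 0 genes were called, and 175 genes had an unadjusted p under 0.05. The labels do not say that the numbers pair the libraries. Deviations from the group means correlated at 0.02, -0.38 and -0.52 for same-numbered libraries, and at -0.27 to 0.63 for differently numbered ones. With 3 libraries per group these deviations constrain one another, so they cannot decide whether libraries were paired. The block gave Rarb 0.26, Nr5a2 -0.071, Nr6a1 -0.092, Ngp 0.40 and S100a9 0.26. Limma-voom gave Rarb 0.30, Nr5a2 -0.058, Nr6a1 -0.080, Ngp 0.70 and S100a9 0.28. On log2(FPKM + 1), with and without a filter, Rarb had 0.046, Nr5a2 -0.066, Nr6a1 -0.0060 and S100a9 0.11. On log2(FPKM + 0.1), Rarb had 0.27, Nr5a2 -0.079, Nr6a1 -0.071, Ngp 0.18 and S100a9 0.22. Upper-quartile factors gave Ep300 0.0054. Leaving out each library in turn gave ranges that crossed 0: Nr1i2 -0.058 to 0.45, Nr1i3 -0.23 to 1.64, Rarb -0.55 to 1.06, Rarg -0.42 to 0.17, Pparg -0.93 to 0.11, Esrrg -0.71 to 0.19, Nr2c1 -0.15 to 0.036, Nr2f6 -0.040 to 0.13, Nr5a2 -0.54 to 0.38, Nr6a1 -0.44 to 0.26, Hnf4g -0.042 to 1.10, Ncoa2 -0.14 to 0.40, Ep300 -0.24 to 0.13, Cidea -9.39 to 2.89, Ngp -1.02 to 1.20, S100a9 -0.67 to 1.29, Cfd -6.91 to 2.58, Xist -0.56 to 9.21, Eif2s3y -1.26 to 0.26 and Mup20 -1.34 to 0.0013. The cholangiocyte median ran from -0.14 to 0.59, the lymphocyte median from -0.63 to 0.20 and the neutrophil median from -0.67 to 1.29. Over the scalings tried, the median of all tested genes lay between 0.0093 and 0.063. Genes with about 100 counts in all, such as Nr2f1 and Hnf4g, are limited by depth.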
